A study of Homo sapiens with 4 samples.

Results

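Chromosome 8 carries long stretches of DNA with few genes, and 2 of them, chr8:49999288-53999575 and chr8:105003221-115996370 on hg19, were followed through 4 Hi-C maps of IMR90 fibroblasts. The deposited bin list holds 14444 bins of about 200 kb, of which 719 lie on chromosome 8, 20 of these in the first block and 55 in the second. A bin belongs to a block when its midpoint lies within the limits. The first block was chosen by the measured change of contact: a bin in the gene SNTG1 rose most of all bins in its contact with inactive chromatin from the growing to the RAS map, so that rise is given as a description. The limits of both blocks were chosen with earlier results of these maps known.

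IMR90 cells are human diploid fibroblasts from lung. All cells carried ER:HRAS G12V (vector pLNCX2), an oncogenic RAS protein that acts once the drug 4OHT is added. The 4 conditions were growing cells (Grow), growing cells with a short hairpin RNA against HMGA1 from the vector pMSCV miR (Grow-shA1), cells in oncogene-induced senescence (OIS) after 6 days of 100 nM 4OHT, and the same with the hairpin (OIS-shA1). Every condition has 1 map. For each of the 2 conditions with the hairpin, 2 samples of the series were pooled into the map. The other 2 maps were taken over from the laboratory's previous work, so knockdown and data set cannot be told apart when a map with shA1 is set against one without it. With 1 map per condition there is no spread between replicates and no test: the SDs below are over bins or over pairs of bins of 1 map and say nothing about replicate error.

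In interphase nuclei chromatin falls into an active A compartment, rich in genes, and an inactive B compartment, poor in genes and AT-rich, and stretches of one kind touch each other more often than their distance along the chromosome alone would give. Senescent fibroblasts with active RAS gather much of their inactive chromatin into foci. HMGA1, the protein lowered by the hairpin, binds AT-rich DNA through its AT-hooks and is a structural component of those foci. Blocks of AT-rich, gene-poor DNA are thus places where contact between B regions can be followed.

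The deposited value of a pair of bins is a score of contact relative to the mean at the same distance, above 0 where contact was more frequent than that mean and below 0 where it was less frequent. Its logarithm base and prior count are not stated, so changes are given in score units and never as folds. Chromosome 8 has 258840 possible pairs of bins. Of these, 88.9% were listed in Grow, 84.1% in Grow-shA1, 80.4% in OIS and 79.3% in OIS-shA1, and 67.3% were listed in all 4 maps. The 2 RAS maps were thus thinner, and the files hold no read counts from which counting error could be had. Of the 719 bins, 700 had at least 50% of their pairs listed in every map and were used.

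In growing cells 279 of the 700 bins were A and 421 were B. The share of B was 60.1%, the 10th highest of 23 chromosomes. With 4.84 protein-coding gene starts per Mb, chromosome 8 ranked 19th of 23. The first block had 20 B bins and no A bin, a mean GC content of 37.6%, against 39.9% over the chromosome, and 8 coding gene starts. They are SNTG1 (a syntrophin, an adaptor of the dystrophin complex), PXDNL (a peroxidasin-like protein), PCMTD1, ST18 (a zinc-finger transcription factor), ALKAL1 (a ligand of the receptors ALK and LTK), RB1CC1 (a scaffold that starts autophagy), NPBWR1 (a neuropeptide receptor) and AC090186.1.

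The second block was not one uniform stretch of inactive chromatin. It had 16 A bins in a row, chr8:105400488-108605873, and 39 B bins on either side, nearly all of them from 108605874 on. The A stretch holds the starts of LRP12, DPYS (pyrimidine breakdown), ZFPM2 (a cofactor of GATA factors), OXR1, ABRA and ANGPT1 (a ligand of the receptor TIE2), at a mean GC content of 37.1%. The B bins, with 35.4% GC, hold 14 starts, among them DCSTAMP, RSPO2 (an enhancer of Wnt signalling), EIF3E (a translation initiation factor), EMC2, TRHR (the receptor of thyrotropin-releasing hormone), ENY2, SYBU, KCNV1 and the very long gene CSMD3. Of the 55 bins, 40 hold no coding start at all. The A and B bins of this block are described apart.

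Compartment scores, positive in A and scaled to a mean square of 1, put the first block in B in all 4 maps, near the mean of the other B bins of the chromosome in Grow. Its mean score was -0.98 in Grow (SD 0.36 over 20 bins), -0.87 in Grow-shA1, -1.08 in OIS and -0.88 in OIS-shA1. The 353 B bins outside the blocks with enough listed pairs had -0.995, -0.982, -0.850 and -0.854 in the same order. The B bins of the second block were lower, with -1.16 in Grow (SD 0.22 over 39 bins), -1.18 in Grow-shA1, -1.21 in OIS and -1.24 in OIS-shA1. Its A bins lay at 0.97, 0.97, 1.03 and 1.06 in the same order. The weakest bin of the first block was chr8:50998645-51201358, inside SNTG1, which stood at -0.07 in Grow, 0.01 in Grow-shA1, -0.03 in OIS and 0.22 in OIS-shA1.

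**Figure D1:**
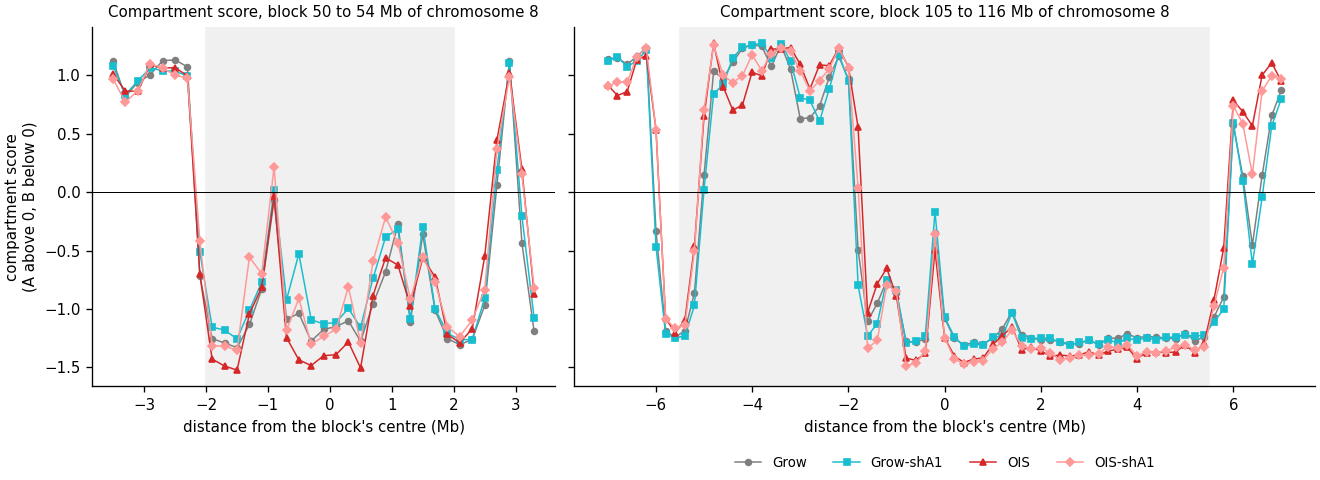
Compartment score of each bin in the 4 maps against the distance of the bin from the centre of the block in Mb, with the block shaded and 1.5 Mb on either side. The first block is below 0 except for 1 bin near 0, and the second block has a stretch above 0 on its left and a long stretch near -1.3 on its right.

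Few bins of the blocks changed compartment, and most changes on the chromosome lay elsewhere. In OIS against Grow, 62 of the 700 bins of chromosome 8 changed compartment, which is 8.86% against 10.2% over the series, 55 from B to A (9.47% over the series in that direction) and 7 the other way (0.713% over the series). None of the 20 bins of the first block was among them. In the second block 1 bin changed, the B bin chr8:108605874-108798417 at its inner border, which went from -0.49 in Grow to 0.55 in OIS. With the hairpin the same bin went from -0.80 in Grow-shA1 to 0.04 in OIS-shA1. In OIS-shA1 against Grow-shA1, 52 bins of chromosome 8 changed (9.17% over the series), 46 of them from B to A (8.0% over the series) and 6 the other way (1.18% over the series). Of the bins that went from B to A, 37 were shared, which is 67.3% of those without and 80.4% of those with the hairpin. They include 2 bins over CCN3 and ENPP2, both secreted proteins, chr8:120401624-120802334, whose mean score was -0.57 in Grow, -0.62 in Grow-shA1, 0.71 in OIS and 0.74 in OIS-shA1.

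Maps with and without the hairpin differed in fewer bins. Between OIS-shA1 and OIS 20 bins of chromosome 8 changed compartment (4.67% of bins over the series), 9 from B to A (1.53%) and 11 the other way (3.15%). Between Grow-shA1 and Grow 28 bins changed (3.27% over the series), 17 from B to A (1.79%) and 11 the other way (1.48%). In both comparisons the weak SNTG1 bin was the 1 bin of the blocks that crossed 0.

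The first block was chosen on its distal contact, the mean score of a bin with the B bins of chromosome 8 over 2 Mb away. Over the 20 bins this mean was 0.261 in Grow (SD 0.194), 0.168 in Grow-shA1 (SD 0.187), 0.471 in OIS (SD 0.210) and 0.222 in OIS-shA1 (SD 0.165). The OIS map was thus the high one. All 20 bins were higher in OIS than in Grow, by a mean of 0.210 (SD 0.120 over bins), and 11 of 20 rose by at least 0.2, against 5.03% of the 10591 bins of the series with enough listed pairs. This comparison chose the block, so nothing is read from that count. The choice also favours a high change of the block in every value drawn from OIS minus Grow, and a smaller one in OIS-shA1 minus Grow-shA1, so these values are descriptions throughout. With the hairpin the change from Grow-shA1 to OIS-shA1, which shares no map with the first, was 0.0545 (SD 0.0812), 15 of 20 bins were above 0 and 1 of 20 rose by at least 0.2, against 5.52% of bins over the series. B bins of chromosome 8 outside both blocks had 0.523 in Grow, 0.450 in Grow-shA1, 0.480 in OIS and 0.385 in OIS-shA1, so they were above the first block in Grow and level with it in OIS.

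Against OIS, distal contact with B bins in OIS-shA1 was lower in all 20 bins of the block, with a mean change of -0.249 (SD 0.105). Of these, 13 of 20 fell by at least 0.2, against 10.1% of bins over the series. Among B bins alone, 948 of 7853 over the series and 76 of 412 on chromosome 8, block included, fell that far. The mean change of B bins was -0.0787 over the series and -0.107 on chromosome 8, so a fall was seen there as well. This comparison shares the OIS map with the one that chose the block. From Grow to Grow-shA1 all 20 bins were lower too, with a mean change of -0.0935 (SD 0.0565), and 1 of 20 fell by at least 0.2, against 4.42% of bins over the series. The mean over all 560 bins of chromosome 8 with enough pairs was -0.0699 in that comparison, so a fall in growing cells was seen over the chromosome as well.

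**Figure D2:**
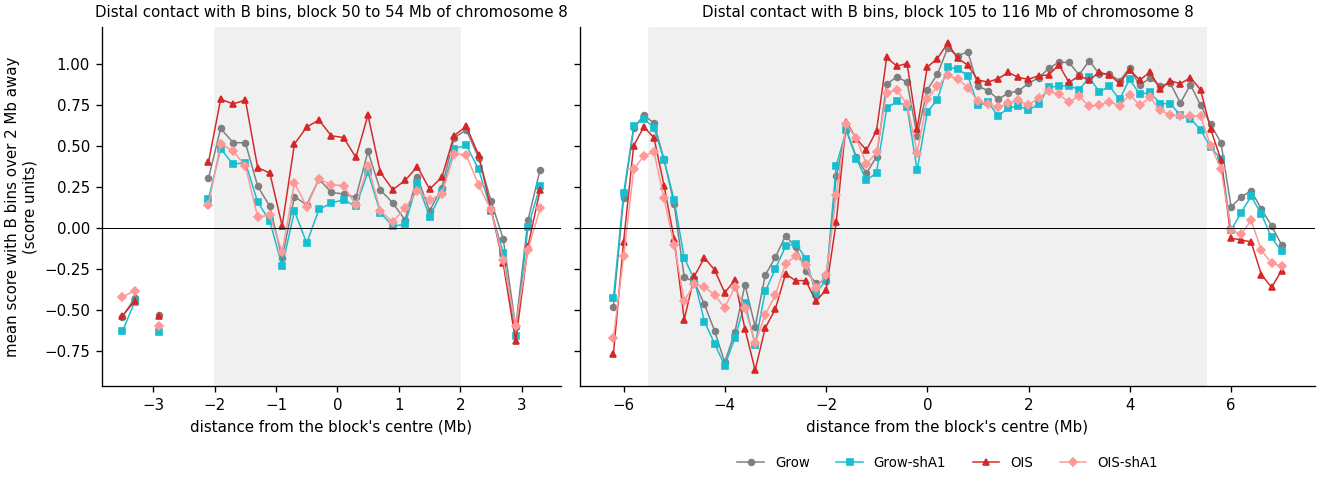
Mean score of each bin with the B bins of chromosome 8 over 2 Mb away, in score units, in the 4 maps, against distance from the block's centre in Mb. Bins with too few listed pairs are left out. In the first block the OIS points lie above those of the other 3 maps across its left and middle, and at the right end the maps lie close together. In the second block the OIS points stand out in the dip on the left, over ZFPM2.

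The rise was uneven over the block and largest over the distal end of SNTG1. The bin chr8:51399581-51599356 had a distal contact with B bins of 0.14 in Grow, -0.09 in Grow-shA1, 0.62 in OIS and 0.13 in OIS-shA1, and its rise of 0.474 from Grow to OIS was the highest of the 10591 bins. The next bin, which holds the end of SNTG1, had 0.30, 0.11, 0.66 and 0.30 in the same order. Going right, the bins with ST18, RB1CC1 and NPBWR1 changed by 0.06, 0.06 and 0.01 from Grow to OIS. The first bin outside the block on that side, chr8:53999576-54196974, changed by 0.02 and the last bin outside on the other side, chr8:49801609-49999287, by 0.10. The bin with the start of SNTG1 changed by 0.20, that of PXDNL by 0.11, that of PCMTD1 by 0.08 and that of ALKAL1 by 0.13. The bins with a coding start thus changed by 0.01 to 0.20, and those without one by 0.11 to 0.47. The block was chosen on this change, so these ranges are a description. The bins of ST18, RB1CC1 and NPBWR1 lie towards its right end, so gene content and position cannot be told apart here.

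Which partners the block gained was uneven too. With B bins of the long arm over 2 Mb away its mean score was 0.310 in Grow, 0.172 in Grow-shA1, 0.610 in OIS and 0.285 in OIS-shA1 over 5141 pairs listed in all 4 maps. With B bins of the short arm it was 0.146, 0.157, 0.155 and 0.075 over 2208 pairs. The change from Grow to OIS was 0.299 with the long arm (SD 0.568 over pairs) and 0.008 with the short arm (SD 0.557). With A bins the change was 0.028 over 3298 pairs, only 59.6% of those possible, so contact with A was not lower in the listed pairs.

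Chromosome 8 had 29 runs of at least 5 B bins and 21 of A bins. In OIS against Grow the contact of the first block with a B run changed by between -0.320 and 0.546, with 20 of 29 above 0. Among the 9 below 0 is the run from 49.8 to 54.6 Mb (-0.214), which holds the block itself and is no other partner. Of the 6 largest rises, 5 were with runs between the block and 93.0 Mb and 1 was with the run from 108.6 to 116.4 Mb, in the second block. With the 34 bins from 82.2 to 89.2 Mb the mean score was 0.40 in Grow, 0.12 in Grow-shA1, 0.88 in OIS and 0.30 in OIS-shA1. With the run from 62.8 to 66.6 Mb it was 0.71, 0.60, 1.04 and 0.67. On the short arm the run from 2.0 to 6.2 Mb, over the very long gene CSMD1, had 0.47, 0.31, 0.71 and 0.44, and the run from 13.6 to 15.2 Mb, over SGCZ, had 0.29, 0.32, 0.59 and 0.40. Other short-arm runs went down, such as that from 19.8 to 21.6 Mb with -0.04, -0.01, -0.33 and -0.05. The GC content of the 20 runs above 0 had a median of 37.7% (35.4% to 41.7%) and that of the 9 below 0 a median of 39.4% (38.0% to 47.5%), so the ranges overlapped. The 38.0% is that of the block's own run. An A run, named after its values were seen, moved with them: with the 5 A bins from 69.4 to 70.4 Mb, over the start of SULF1, a heparan sulfate sulfatase, contact was -0.33 in Grow, -0.28 in Grow-shA1, 0.25 in OIS and -0.16 in OIS-shA1.

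**Figure D3:**
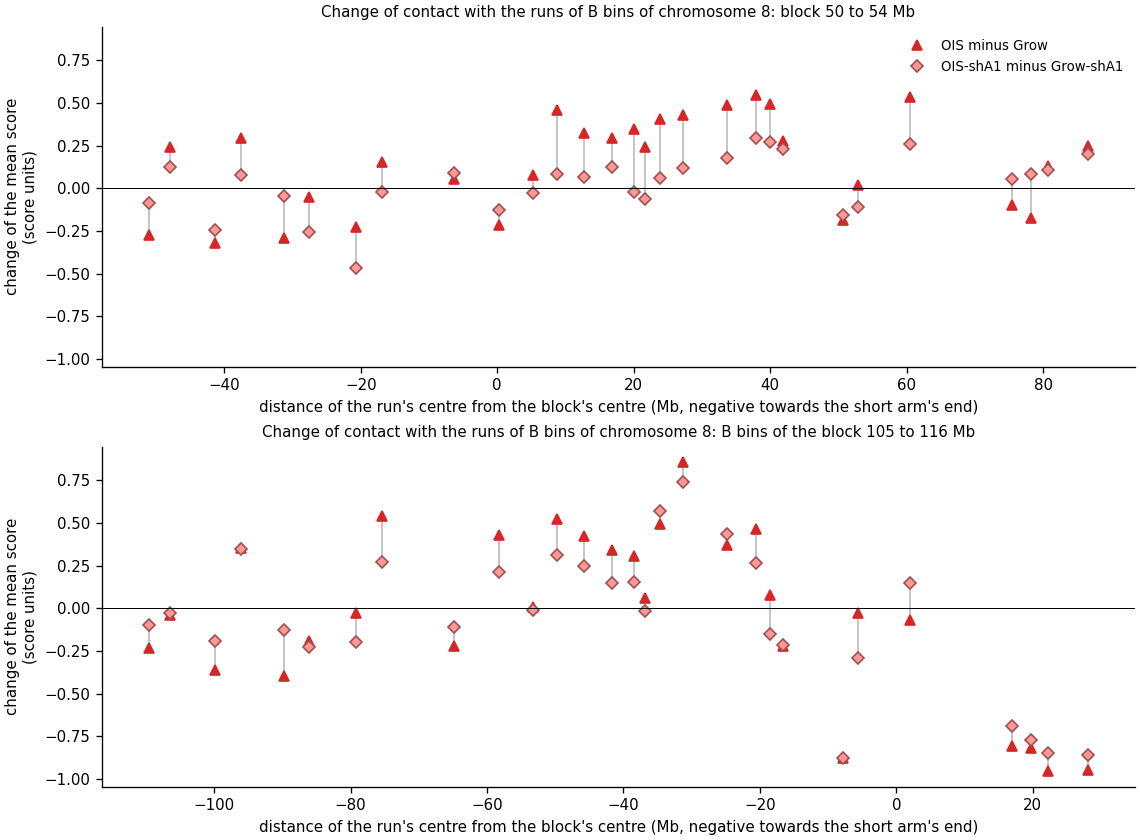
Change of the mean score of each block with each of 29 runs of at least 5 B bins, in score units, against the distance of the run from the block in Mb, for RAS without and with the hairpin. For each block 1 of the runs holds most or all of its own B bins. For the first block most gains to its right shrink with the hairpin, while for the B bins of the second block the losses near -0.9 and the gain of 0.85 are close in both comparisons.

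The 2 blocks, 51.2 to 65.8 Mb apart, were in closer contact with each other in OIS than in the other 3 maps. Over 699 pairs of their B bins the mean score was 0.235 in Grow, -0.014 in Grow-shA1, 0.746 in OIS and 0.232 in OIS-shA1, with SDs over pairs from 0.416 to 0.708. The mean rose by 0.511 from Grow to OIS, and 78.0% of the pairs were above 0. With the hairpin it rose by 0.246, and 66.4% of the pairs were above 0. The second change minus the first was -0.265. A constant shift shared by the 2 maps with the hairpin cancels in it, but a difference in the spread of scores does not. The choice of the first block on the change without the hairpin by itself lowers this value, so it is a description. The mean fell by 0.514 from OIS to OIS-shA1 and fell by 0.249 from Grow to Grow-shA1.

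The B bins of the second block are among the partners on which the first block was chosen, so a rise of this pair above that of other pairs was favoured by the choice. Other B-B pairs of chromosome 8 at that distance had a mean score of 0.403 in Grow, 0.308 in Grow-shA1, 0.341 in OIS and 0.253 in OIS-shA1 over 9179 pairs. The blocks were thus below other B pairs of the chromosome in Grow and above them in OIS. On the 18 other chromosomes with such pairs the change from Grow to OIS had a median of -0.008 and went from -0.274 to 0.128, given for scale only. Both comparisons of a map with the hairpin against one without it were below 0 on all 18. The median was -0.112 (-0.170 to -0.008) in OIS-shA1 minus OIS and -0.116 in Grow-shA1 minus Grow. With the A bins of the second block the first block had -0.262, -0.270, -0.203 and -0.234, a change of 0.059 from Grow to OIS.

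**Figure D4:**
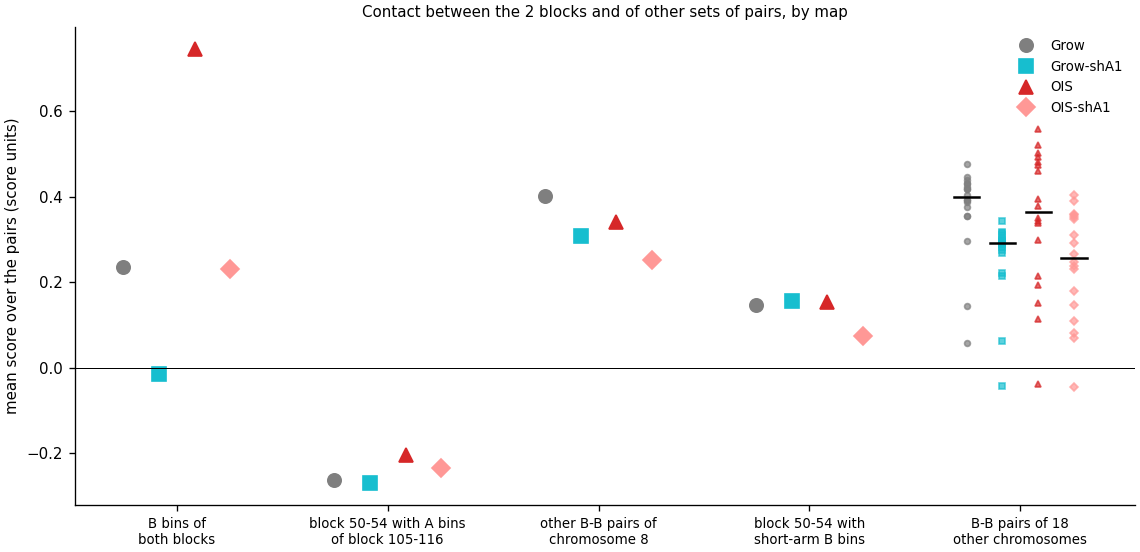
Mean score over sets of pairs in the 4 maps, in score units. The first 3 sets and the last hold pairs 51.2 to 65.8 Mb apart, the last with 1 point for each of 18 other chromosomes and a bar at their median, and the fourth holds all pairs of the first block with short-arm B bins. For the B bins of both blocks the OIS point stands at 0.746 and the Grow-shA1 point at -0.014.

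The mean distal contact with B bins moved little in the B bins of the second block, while contact with single B runs changed by between -0.96 and 0.85. Their distal contact with B bins was 0.821 in Grow (SD 0.204 over 39 bins), 0.719 in Grow-shA1 (SD 0.178), 0.845 in OIS (SD 0.222) and 0.706 in OIS-shA1 (SD 0.172). In OIS against Grow the mean change was 0.0242 (SD 0.0933), with 0 of 39 rising and 1 of 39 falling by at least 0.2, against 5.03% and 25.2% over the series. Between Grow-shA1 and OIS-shA1 it was -0.0134 (SD 0.0878), with 1 of 39 falling against 23.5% over the series. From OIS to OIS-shA1 it was -0.139 and from Grow to Grow-shA1 -0.102, so the maps with the hairpin were lower in both states.

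The changes with single runs went in opposite directions. With the B runs on the outer long arm the second block lost contact: with the 26 bins from 136.0 to 141.2 Mb its B bins had 1.62 in Grow, 1.80 in Grow-shA1, 0.68 in OIS and 0.94 in OIS-shA1. With the run from 131.8 to 133.8 Mb they had 1.40, 1.52, 0.44 and 0.67. With the 5 bins from 102.2 to 103.2 Mb, just before the block, they had 0.29, 0.45, -0.58 and -0.43. With the B runs of the inner long arm they gained: with the 14 bins from 77.8 to 80.6 Mb, which hold IL7, a cytokine gene, they had 1.33, 1.06, 2.19 and 1.80. With the run from 75.0 to 76.6 Mb they had 1.37, 1.04, 1.86 and 1.61. The 3 losses were close in size with the hairpin (-0.86, -0.85 and -0.88 from Grow-shA1 to OIS-shA1, against -0.95, -0.96 and -0.88 without), and the 2 gains were 0.74 and 0.57, against 0.85 and 0.49. Other gains were smaller with the hairpin, such as that with the run from 33.4 to 36.8 Mb (0.27 against 0.54) and that with the run from 62.8 to 66.6 Mb (0.25 against 0.42). Over the 14 B runs with a change above 0 from Grow to OIS the median was 0.398 without and 0.256 with the hairpin. Over the 15 below 0 it was -0.235 and -0.219. Among these 15 is the run from 108.6 to 116.4 Mb (-0.069), which holds most of the block's own B bins. The runs were split on the change without the hairpin, which by itself favours a smaller change with it, so these medians are descriptions. Of the pairs behind these means, 546 of 546 with the run from 77.8 Mb, 311 of 312 with that from 75.0 Mb and 979 of 1014 with that from 136.0 Mb were listed in every map.

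Sorted by distance, the mean contact of these bins fell in the classes up to 20 Mb and rose in those from 40 Mb on. At 20 to 40 Mb it changed by 0.024 from Grow to OIS over 4638 pairs. Runs lying mostly at that distance went in opposite directions, such as -0.946 with that from 136.0 Mb and 0.854 with that from 77.8 Mb. Distance and side of the block were not separated, so no rule of distance is read from these means. Pairs of these B bins with B bins 10 to 20 Mb away had a mean score of 0.981 in Grow, 1.186 in Grow-shA1, 0.441 in OIS and 0.586 in OIS-shA1. Pairs 60 to 80 Mb apart had 0.246, 0.082, 0.596 and 0.238. The changes from Grow to OIS were -0.539 and 0.350, and from Grow-shA1 to OIS-shA1 -0.600 and 0.156. For the first block they were 0.219 and 0.345 without the hairpin, and -0.001 and 0.205 with it. B-B pairs outside the blocks changed by -0.043 and -0.033 without the hairpin, and by -0.111 and -0.027 with it.

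**Figure D5:**
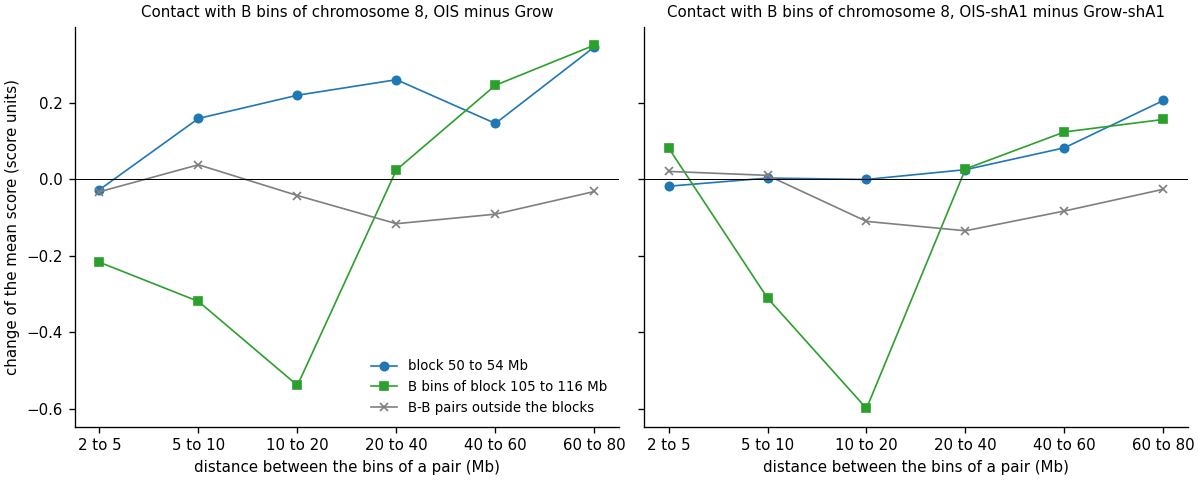
Change of the mean score with B bins of chromosome 8, in score units, by distance between the bins in Mb, for RAS without the hairpin on the left and with it on the right. B bins of the second block fall most at 10 to 20 Mb in both panels, and the first block is above 0 from 5 Mb on in the left panel and near 0 up to 20 Mb in the right.

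Contact of the second block's B bins with the A compartment went down. The distal contact of its B bins with A bins was -0.453 in Grow, -0.481 in Grow-shA1, -0.903 in OIS and -0.838 in OIS-shA1. It was lower in OIS than in Grow in 34 of 39 bins, with a mean change of -0.449 (SD 0.297), and with the hairpin in 37 of 39, with a mean change of -0.358 (SD 0.222). B bins of chromosome 8 outside the blocks changed by -0.152 and -0.0687, and the first block by 0.0245 and 0.0394. Pairs unlisted in any map are left out of these means, and with them set to 0 the change of the whole second block from Grow to OIS was -0.0824 in place of -0.312. Inside the block the contact of A with B bins over 2 Mb apart was -0.777 in Grow, -0.785 in Grow-shA1, -1.322 in OIS and -1.292 in OIS-shA1, and 549 of its 553 pairs were listed in every map.

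Short-range contact of B bins inside the blocks was lowest in OIS. For B bins of the second block up to 2 Mb apart the mean score was 0.861 in Grow (SD 0.701 over 304 pairs), 0.764 in Grow-shA1, 0.385 in OIS and 0.594 in OIS-shA1. For the first block it was 0.530 in Grow (SD 0.779 over 137 pairs), 0.517 in Grow-shA1, 0.354 in OIS and 0.504 in OIS-shA1. Other B-B pairs of chromosome 8 at that distance had 0.335, 0.313, 0.235 and 0.322. In OIS against Grow 5.26% of the pairs in the second block and 22.6% of those in the first were above 0, against 37.8% of the others. Each map's own mean at a distance enters these values. With each map centred on its mean over the pairs listed in all 4 maps, the change of the first block shrank from -0.176 to -0.0349 and that of the second, all bins, from -0.327 to -0.183. Among the A bins of the second block contact up to 2 Mb was 0.446 in Grow, 0.395 in Grow-shA1, 0.430 in OIS and 0.160 in OIS-shA1, so there the OIS-shA1 map was the low one.

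Within the A stretch of the second block 4 neighbouring bins inside ZFPM2 went against the rest. They are chr8:105998993-106797726, they hold no coding start, and they were singled out after their values were seen. Their distal contact with B bins was -0.636 in Grow, -0.695 in Grow-shA1, -0.286 in OIS and -0.402 in OIS-shA1. The bins rose from Grow to OIS by 0.29, 0.37, 0.42 and 0.32, and from Grow-shA1 to OIS-shA1 by 0.21, 0.30, 0.35 and 0.31. The other 12 A bins of the stretch changed by -0.190 (SD 0.115) and -0.087 (SD 0.105). The split was made on the change from Grow to OIS, so this contrast with the 4 bins is a description. Of all 16 A bins of the stretch, 8 fell by at least 0.2 from Grow to OIS. That compares with 25.2% of bins over the series and 53 of 148 A bins of chromosome 8. The compartment scores of the 4 bins went from 1.11, 1.23, 1.26 and 1.25 in Grow to 0.70, 0.74, 1.03 and 0.99 in OIS, so they came nearer to B without leaving A. The bin with the start of ZFPM2 was not one of them: its score went from 1.03 to 1.27 and its distal contact with B bins fell by 0.26.

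The 4 bins gained with some B runs on both sides of the block and lost with others, and the largest rises are given first. With the B run from 129.8 to 130.8 Mb their mean score was -0.54 in Grow, -0.60 in Grow-shA1, 0.56 in OIS and 0.28 in OIS-shA1, and with the B run from 126.8 to 128.0 Mb it was -0.87, -1.22, 0.19 and -0.14, over 20 pairs each. Left of the block the change from Grow to OIS was 0.96 with the B run from 93.2 to 94.6 Mb, 0.87 with that from 102.2 to 103.2 Mb and 0.64 with that from 68.2 to 69.4 Mb. With the A run from 133.8 to 135.2 Mb the mean score was 0.70, 0.54, -0.05 and 0.16. With the B run from 108.6 to 116.4 Mb, on the other side of ANGPT1, the 4 bins had -1.13, -1.29, -0.87 and -1.24, while the other A bins of the stretch had -0.62, -0.60, -1.38 and -1.22. From Grow to OIS the 4 bins changed by 0.08 with the B run from 82.2 to 89.2 Mb (122 pairs). With that from 71.4 to 72.8 Mb they changed by -0.23 (14 pairs). The other A bins also rose with the B runs from 129.8 Mb (0.50), 126.8 Mb (0.17) and 93.2 Mb (0.26). With those from 102.2 and 68.2 Mb these other A bins changed by -0.05 and 0.04.

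The RAS changes with and without the hairpin were set against each other by the least-squares slope of the change with shA1 on the change without it, over squares of 5 by 5 bins of distal pairs. The comparisons share no map, but squares share bins and are not independent. Over 7179 squares of chromosome 8 the slope was 0.69 (r = 0.80), the 18th highest of 23 chromosomes, whose slopes had a median of 0.74. For pairs with a bin of the first block it was 0.44 (r = 0.69, 441 squares) and for pairs with a bin of the second block 0.77 (r = 0.88, 1103 squares). The choice of the first block on the change without the hairpin by itself lowers its slope, so the slopes are not set against each other. Over single pairs in place of squares the slope of the chromosome was 0.35. Counting error in the change without the hairpin pulls such a slope towards 0. A slope below 1 is therefore not read as a smaller change with the hairpin.

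A network of increased contacts was drawn from the 1% of distal pairs of chromosome 8 with the largest increase, 1655 pairs in each comparison. In OIS against Grow a core remained of 23 bins each joined to at least 7 others of the core, 22 of them B, with 3 from the first and 11 from the second block. In OIS-shA1 against Grow-shA1 the core had 43 bins at the same k of 7, 42 of them B, with 0 from the first and 21 from the second block. A bin of the first block had on average 10.3 of the increased contacts without the hairpin and 4.90 with it, against 4.73 for all bins of the chromosome. The first of these networks holds the change that chose the first block, so its count there is a description. B bins of the second block had 12.2 and 9.64.

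The change of distal contact with B bins was related to GC content in B bins and less so in A bins. Over 412 B bins Pearson's r with GC was -0.58 for the RAS change without and -0.53 for that with the hairpin, 0.52 in OIS-shA1 minus OIS and 0.48 in Grow-shA1 minus Grow, given as a description because neighbouring bins and their pairs are shared. Over 148 A bins it was -0.19, -0.15, 0.24 and 0.14 in the same order. In OIS minus Grow, 49 of 560 bins of the chromosome rose by at least 0.2 (5.03% over the series) and 118 fell (25.2%). In OIS-shA1 minus OIS 9 rose (2.49% over the series) and 81 fell (10.1%), and in Grow-shA1 minus Grow 0 rose (0.378%) and 21 fell (4.42%). In OIS-shA1 minus Grow-shA1 19 rose (5.52%) and 99 fell (23.5%). After bins in SNTG1 and ZFPM2, the third largest rise on the chromosome from Grow to OIS was in the A bin chr8:77199577-77394926, with 0.02 in Grow, -0.11 in Grow-shA1, 0.44 in OIS and 0.16 in OIS-shA1. The largest fall on the chromosome was in an A bin within NRG1, a growth factor gene, chr8:32196353-32400022, with -0.14, -0.31, -0.86 and -0.73. The next was chr8:128001458-128201573, with 0.07, 0.12, -0.52 and -0.19, which also had the largest rise from OIS to OIS-shA1 (0.33).

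Genes of 3 lists were followed through the bins with their starts. Of 17 genes for secreted and matrix proteins 10 had bins with enough pairs. Of these, 6 fell by at least 0.2 from Grow to OIS (25.2% over the series) and 7 from Grow-shA1 to OIS-shA1 (23.5%). Their medians were -0.314 and -0.243, against -0.0777 and -0.0693 over all bins of the series. Of the 17 bins of this list 12 were A. The 148 A bins of chromosome 8 with enough pairs had medians of -0.116 and -0.0615, and 53 and 34 of them fell by at least 0.2. The bins of ENPP2, which makes lysophosphatidic acid, and CCN3, a matricellular protein, are neighbours and fell by 0.42 and 0.41. Those of COL14A1, a fibril-associated collagen, and STC1 fell by 0.38 and 0.36. Of 12 cell cycle and growth genes in 10 bins, 7 bins had enough pairs and 1 fell by at least 0.2, against 25.2% over the series, that of DSCC1, a clamp loader subunit, by 0.37. Of the bins of 10 long genes of gene-poor DNA, 1 rose (5.03% over the series), that of SNTG1 in the block chosen on this rise, and 3 fell, those of ZFPM2, DLGAP2 and TRPS1, a share near the 25.2% over the series. CSMD1 and CSMD3, among the longest, changed by -0.05 and -0.01.

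Compartment strength of the whole chromosome, which sets the average of both like-with-like means (A-A, B-B) against the A-B mean of distal pairs, was 0.739 in Grow, 0.742 in Grow-shA1, 0.862 in OIS and 0.784 in OIS-shA1. The rise of 0.123 from Grow to OIS was the 5th highest of 23 chromosomes, with a median of 0.0817. This change was above 0 on 20 of 23 chromosomes. It was -0.0871 with each score scaled by its map's SD for that distance, and -0.0103 with unlisted pairs set to 0. That SD holds the A-B contrast as well as counting error, so scaling removes part of any change in strength. Over distal B-B pairs the SD was 0.667 in Grow and 0.890 in OIS. A pair set to 0 gets the mean contact at its distance, and fewer pairs were listed in OIS (80.4%) than in Grow (88.9%). Neither value can thus decide the direction, and the rise is given for listed pairs in score units only. The change of the first block with B bins from Grow to OIS, on which it was chosen, was 0.178 to 0.300 under 12 alternatives, and that between all bins of both blocks, 0.396, was 0.368 to 0.511 under 7. Both ranges come from the same maps and are no support for the rise.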

How the data were processed

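In-nucleus Hi-C libraries cut with HindIII were processed with HiC-Pro on hg19 per the submitters' processing notes, without versions. The authors deposited 4 maps of scores, one value per pair of bins of about 200 kb after iterative (ICE) correction and correction for distance; the score's log base and prior count are not given in the sources used here. Each map stands for 1 condition, so no test across samples was possible and none was run.

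Bins were kept where at least 50% of their pairs were listed in every map (13606 on 23 chromosomes). The compartment score was the leading eigenvector of the correlation matrix, oriented by coding gene starts (GENCODE v44 lifted to GRCh37). A and B are those of Grow, except that a change of compartment was counted from the sign of each map's own score. Changes used pairs listed in all 4 maps, with distal meaning over 2 Mb, and were counted for the 10591 bins with at least 10 distal B pairs and 50% of those possible, 560 of them on chromosome 8. A change of 0.2 score units was counted as a rise or fall. Named bins were the 3 highest and 3 lowest on the chromosome and those with listed genes. The members, lists and limits were chosen with earlier results of these data known. The code was tested on simulated data. Python 3.11.15, numpy 2.4.6, pandas 2.3.3, networkx 3.6.1 and matplotlib 3.10.9 were used.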

Additional observations from a re-analysis of the deposited data

How the results depend on the processing

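No paired analysis was possible because the replicates of a condition were pooled in 1 map. For the same reason no replicate could be left out. Under 16 alternatives 442 values of 49 results were recomputed, and 375 stayed within 0.05 score units or 1.5 times the value reported, while 65 moved further and 2 reversed. A reversal was counted only where the value reported was at least 0.05 in size. Sign changes of smaller values are therefore counted among the other values. Below, RAS stands for OIS minus Grow and RAS with the hairpin for OIS-shA1 minus Grow-shA1, while the hairpin with RAS is OIS-shA1 minus OIS and the hairpin in growing cells is Grow-shA1 minus Grow. The second block is taken with all its bins, and the causes of these moves were not tested. Where scores are scaled by an SD, values are in units of that SD and not in score units. The limits of 0.2 and 0.05 were kept there, so its counts are not at the same cutoff as the others. With each score scaled by its map's SD for that distance, compartment strength was -0.0871 for RAS, -0.0213 for the hairpin with RAS and -0.0806 for RAS with the hairpin, and the number of bins that rose in distal B contact was 29 for RAS, 20 for the hairpin with RAS, 3 for the hairpin in growing cells and 31 for RAS with the hairpin. The number that fell was 210 for RAS and 135 for the hairpin in growing cells, and distal B contact of the first block for the hairpin in growing cells was -0.153. Distal A contact of the first block was 0.145 for RAS and 0.12 for RAS with the hairpin, and distal B contact of the second block was -0.0817 for RAS and -0.146 for the hairpin in growing cells. Contact between the blocks was -0.354 for the hairpin in growing cells and 0.33 for RAS with the hairpin, and largest k of the network was 4 for RAS and 4 for RAS with the hairpin. With each map centred on its mean over the pairs listed in all 4 maps, the number of bins that rose in distal B contact was 75 for RAS, 18 for the hairpin with RAS, 7 for the hairpin in growing cells and 44 for RAS with the hairpin, and the number that fell was 38 for the hairpin with RAS and 8 for the hairpin in growing cells. Distal B contact of the first block for the hairpin in growing cells was -0.038, and distal A contact of the first block was 0.0872 for RAS and 0.0304 for the hairpin in growing cells. Inner contact of the first block was -0.0349 for RAS, 0.0419 for the hairpin in growing cells and 0.0834 for RAS with the hairpin, and distal B contact of the second block was 0.0526 for RAS and -0.025 for the hairpin in growing cells. Inner contact of the second block was -0.183 for RAS, -0.0444 for the hairpin in growing cells and -0.0977 for RAS with the hairpin, and contact between the blocks for the hairpin in growing cells was -0.115. With unlisted pairs set to 0, compartment strength was -0.0103 for RAS, -0.0529 for the hairpin in growing cells and -0.038 for RAS with the hairpin, and the number of bins that rose in distal B contact was 1 for the hairpin with RAS and 12 for RAS with the hairpin. The number that fell was 74 for RAS, 10 for the hairpin in growing cells and 51 for RAS with the hairpin, and distal A contact of the first block was 0.0827 for RAS and 0.0412 for the hairpin in growing cells. Distal A contact of the second block was -0.0824 for RAS and -0.0722 for RAS with the hairpin. With compartments taken from each map itself, compartment strength was 0.191 for RAS and 0.0938 for RAS with the hairpin, and the number of bins that rose in distal B contact was 104 for RAS, 21 for the hairpin with RAS, 1 for the hairpin in growing cells and 45 for RAS with the hairpin. Distal B contact of the second block for RAS was 0.0649, and distal A contact of the second block for the hairpin with RAS was 0.101. With all pairs listed in each map, the number of bins that rose in distal B contact for the hairpin with RAS was 3, and the number of bins that fell in distal B contact for the hairpin in growing cells was 12. With the component of the column-centred correlation matrix, an alternative chosen after seeing the data, the number of bins that rose in distal B contact was 14 for the hairpin with RAS and 1 for the hairpin in growing cells. With 0.5% of pairs in the network, largest k of the network was 4 for RAS, 2 for the hairpin with RAS, 2 for the hairpin in growing cells and 4 for RAS with the hairpin. With 2% of pairs in the network, largest k of the network for RAS with the hairpin was 11. With only the B bins of the second block, inner contact of the second block for the hairpin with RAS was 0.21. Over single pairs, the slope was 0.352. Compartment strength for RAS thus reversed under 2 of its 11 alternatives, and under the same 2 that for RAS with the hairpin went below 0. Both RAS maps list fewer pairs than the Grow map, and the files give no reads, so counting error is unknown.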
